A study of Mus musculus with 8 samples.

Results

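Leptin (Lep), the leptin receptor (Lepr) and 8 adipocyte marker genes (Adipoq, Retn, Fabp4, Plin1, Cidec, Cfd, Lipe and Pparg) were followed across pancreas RNA-Seq of 8 male mice. The 10 genes were picked by symbol from a table of 15047 gene symbols, and all 10 had a value in every mouse. Lep and Lepr were kept apart from the 8 markers, which serve as a rough measure of adipocyte content. The LFD group (n = 3) and the HFD group (n = 3) were C57BL/6 WT mice given a low-fat diet or a high-fat diet, the latter with 60% of its calories from fat, for 10 weeks from the age of 4 weeks. The ob/ob group (n = 2) were leptin-deficient C57BL/6J; ob/ob mice fed standard chow, also from the age of 4 weeks, so that both genotype and diet separate them from the LFD mice. The study's text describes the sequenced mice as bearing mT organoids, grown from tumors of a genetic mouse model of pancreatic cancer and injected into the pancreas, which neither the sample labels nor its account of the RNA extraction mention. The values are rlog values, which are on a log2 scale, are corrected for library size and are shrunk for genes with few reads, with an unknown number of reads behind each mouse.

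Leptin is a hormone that adipocytes release in proportion to their fat stores and that lowers food intake through its receptor in the brain. The receptor activates Jak2 and Stat3, and its signal is limited by Socs3. The ob allele is known as a nonsense mutation of Lep, from which a transcript but no working hormone is made, so the level of Lep RNA does not check the genotype of the ob/ob mice. Pancreatic lobules are surrounded and infiltrated by white fat, and Adipoq, Plin1 and Cidec RNA in such tissue is commonly taken as a sign of adipocytes. In whole tissue, fewer cells of a type and less RNA per cell cannot be told apart.

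The 250 bases before the RefSeq start sites of Lep, Cfd and Adipoq (GRCm38.p6, all on the plus strand) are shown because Lep and Cfd were the members with the largest differences between groups, in opposite directions, and Adipoq is a marker that stayed within the spread of the mice. Capitals mark matches to TTNNGNAA, a core of the sites bound by C/EBP factors of adipocytes, searched on both strands together with the TATA box (TATAAA), the nuclear receptor site (AGGTCA), the PPAR element (that site repeated after a single base) and the E-box (CANNTG).
Lep, chr6:29059971-29060220: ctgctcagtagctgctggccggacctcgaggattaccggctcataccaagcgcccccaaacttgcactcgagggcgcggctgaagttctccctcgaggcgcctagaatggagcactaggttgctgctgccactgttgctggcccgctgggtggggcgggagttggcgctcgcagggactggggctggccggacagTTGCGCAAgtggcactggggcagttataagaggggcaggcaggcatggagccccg
Cfd, chr10:79890603-79890852: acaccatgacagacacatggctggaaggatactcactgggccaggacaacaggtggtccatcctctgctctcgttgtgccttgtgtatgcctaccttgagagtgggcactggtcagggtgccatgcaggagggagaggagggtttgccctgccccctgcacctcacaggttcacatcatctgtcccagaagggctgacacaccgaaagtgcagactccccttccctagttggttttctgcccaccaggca
Adipoq, chr16:23146286-23146535: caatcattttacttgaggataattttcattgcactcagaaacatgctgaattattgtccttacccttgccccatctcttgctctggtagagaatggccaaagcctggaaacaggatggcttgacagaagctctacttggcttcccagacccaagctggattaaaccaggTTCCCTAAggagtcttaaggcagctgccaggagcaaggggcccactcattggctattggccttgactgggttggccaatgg
The Lep window held TTGCGCAA, whose first base lies at -55 from the start, and this match overlapped 2 matches to CANNTG at -58 and -50. The Adipoq window held a match at -81, read on the minus strand, and the Cfd window held none. Exact matches to TATAAA, the nuclear receptor site and the PPAR element were in none of the 3 windows. Variants were not searched, such as the tataag near the end of the Lep window, so a TATA box is not shown to be absent. The members had 14 windows, none of them of Fabp4, which was not searched. TTNNGNAA was in 6 of these 14 and in 36.8% of all 32851 windows. The nuclear receptor site was in 2 of 14 and 14.0%, TATAAA in 1 of 14 and 12.4%, and the E-box in 11 of 14 and 66.2%. The PPAR element was in 0 of 14 and in 0.0335% of all windows.

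Lep was higher in both obese groups than in lean mice. Lep (chromosome 6 of GRCm38, 29060220 to 29073877, plus strand, Gencode M21, protein coding) had rlog values of 6.20, 5.86 and 6.28 in replicates 1 to 3 of LFD, of 7.27, 7.26 and 7.31 in replicates 1 to 3 of HFD, and of 8.12 and 6.78 in ob/ob replicates 1 and 2. All 5 obese mice lay above all LFD mice, the HFD mice were nearly equal to one another, and the ob/ob mice lay on either side of them. The mean was 6.11 ± 0.22 (SD, n = 3) under LFD, 7.28 ± 0.03 (SD, n = 3) under HFD and 7.45 ± 0.95 (SD, n = 2) for ob/ob. The log2 difference between HFD and LFD was 1.17 (standard error 0.33), a fold of 2.25 on the rlog scale, with an unadjusted p of 0.00692 and an adjusted p of 0.180 with limma over all genes. Between ob/ob and LFD it was 1.34 (standard error 0.37), a fold of 2.53, with an unadjusted p of 0.00596 and an adjusted p of 0.194 with limma. Neither difference passed an adjusted p of 0.05. The order of the means was ob/ob, HFD, LFD, and the ob/ob and HFD neighbours did not differ beyond their spread (difference 0.17, standard error 0.37, unadjusted p = 0.649 with limma). The ob/ob value rested on single mice: without ob/ob replicate 1 the difference from LFD was 0.67 (unadjusted p = 0.0607 with limma) and without ob/ob replicate 2 it was 2.01, and the difference from HFD was -0.50 and 0.85.

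These values are read against the whole table. With limma, 0 of 15047 genes had an adjusted p under 0.05 in any of the 3 comparisons (0.0% each), whereas 19.8% had an unadjusted p under 0.05 between HFD and LFD, 18.8% between ob/ob and LFD, and 3.91% between ob/ob and HFD. In the direction of Lep, 11.5% of genes were higher under HFD and 11.6% higher in ob/ob than under LFD at an unadjusted p under 0.05. Of all genes, 9.40% had both obese groups above LFD with no overlap, as Lep did, and 9.05% had both below. Taken singly, 12.9% of genes were above LFD with no overlap under HFD and 24.1% in ob/ob, and 12.3% and 21.8% were below. Between ob/ob and HFD, 2.28% were higher and 1.63% lower in ob/ob at an unadjusted p under 0.05, and 7.92% were above and 5.42% below HFD with no overlap. The comparisons with LFD share the LFD mice, so they are not independent of each other.

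**Figure D1:**
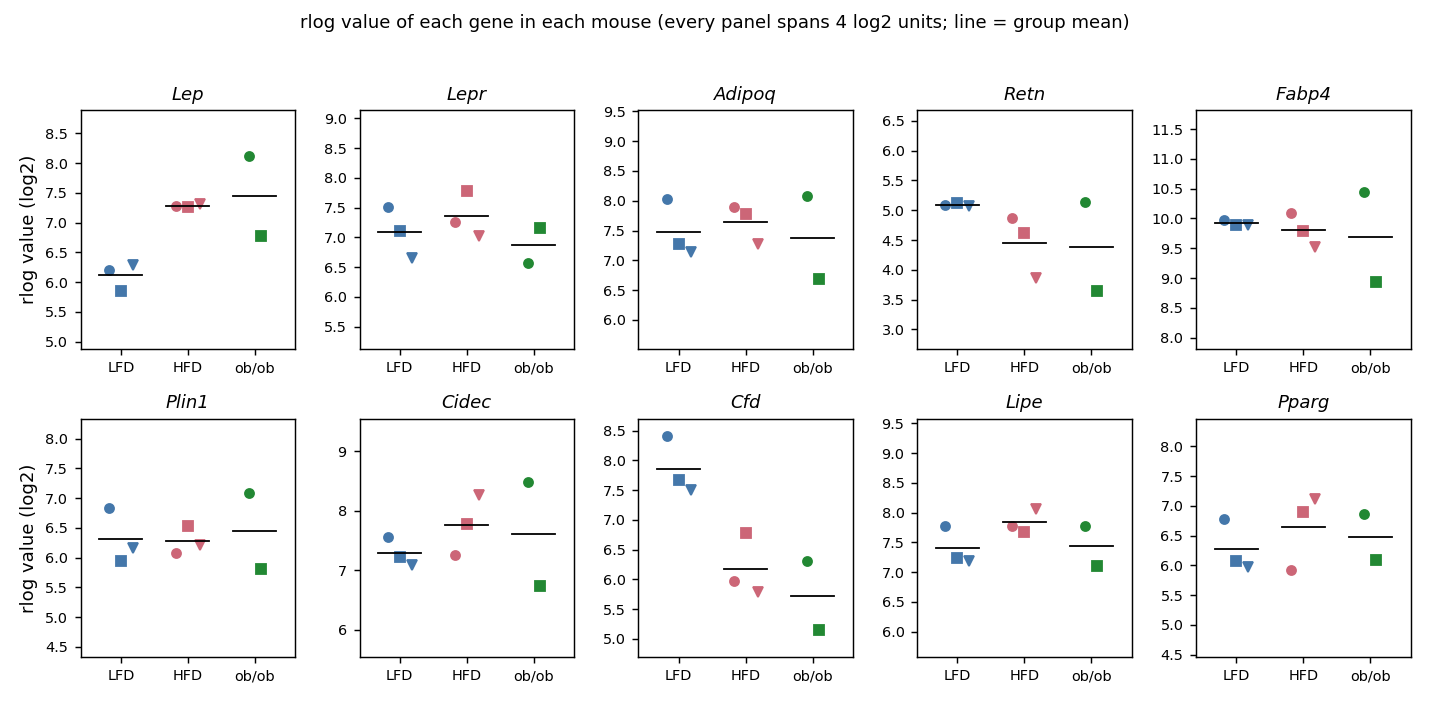
rlog values (log2, y axis) of the 10 genes by group (x axis), with 1 point a mouse (circle, square and triangle for replicates 1, 2 and 3), a line at the group mean and 4 log2 units in each panel. Lep was above all LFD mice and Cfd below all LFD mice in each of the 5 obese mice, while the groups overlapped in every comparison for Adipoq, Fabp4, Plin1, Cidec, Lipe and Pparg.

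Lepr showed no such separation. Lepr (chromosome 4, 101717404 to 101815352, plus strand, 7 annotated transcripts) had rlog values of 7.51, 7.11 and 6.65 under LFD, of 7.27, 7.78 and 7.02 under HFD, and of 6.58 and 7.15 in ob/ob. The groups overlapped in every comparison, with HFD replicate 2 highest and ob/ob replicate 1 lowest. The mean was 7.09 ± 0.43 (SD, n = 3) under LFD, 7.36 ± 0.39 (SD, n = 3) under HFD and 6.86 ± 0.41 (SD, n = 2) for ob/ob. The log2 difference was 0.27 (standard error 0.31, adjusted p = 0.635 with limma) between HFD and LFD, -0.23 (standard error 0.34, adjusted p = 0.723) between ob/ob and LFD, and -0.49 (standard error 0.34, adjusted p = 1.00) between ob/ob and HFD. No neighbours in the order HFD, LFD, ob/ob differed beyond their spread, and without ob/ob replicate 1 the order of the last pair turned (0.06). The value sums all transcripts of the gene, so the long receptor form that signals through Stat3 and the short forms cannot be told apart.

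Lepr is known outside adipocytes, in vessel walls and stromal cells, so its level is set beside the lists of those cells. The mean rlog value of 9 endothelial genes was 7.25 ± 0.22 under LFD, 7.48 ± 0.29 under HFD and 7.26 ± 0.54 in ob/ob (SD), and that of 5 pericyte genes was 7.16 ± 0.12, 7.63 ± 0.48 and 7.57 ± 0.24. Both lists had overlapping groups between HFD and LFD, as Lepr did. The mean of the pericyte list was above all LFD mice in both ob/ob mice (7.40 and 7.74), where Lepr overlapped. Among the 5 pericyte genes this separation from LFD was seen in ob/ob for Pdgfrb alone (log2 difference 1.31). Cspg4 (0.83), Rgs5 (0.27), Kcnj8 (-0.07) and Abcc9 (-0.26) overlapped, so the list mean does not stand for each gene. The list of 6 fibroblast genes was at 10.4 ± 0.13 under LFD, 11.4 ± 0.32 under HFD and 11.7 ± 0.58 in ob/ob, with every obese mouse above every LFD mouse, a separation that Lepr did not show. The list of 6 adipocyte progenitor genes was at 7.51 ± 0.14, 8.07 ± 0.24 and 8.09 ± 0.12, also with no overlap between obese and LFD mice. Taken singly, 4 of 6 fibroblast and 2 of 6 progenitor genes were above all LFD mice under HFD, beside 12.9% of all genes. In ob/ob these were 5 of 6 and 3 of 6, beside 24.1%. These list means do not stand for each gene either.

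Among the 8 adipocyte markers, 4 had a higher and 4 a lower mean under HFD than under LFD, and likewise 4 and 4 in ob/ob against LFD. The median log2 difference of the 8 was 0.06 under HFD and -0.03 in ob/ob against LFD, beside 0.03 and 0.04 over all genes. At an unadjusted p under 0.05, 1 of 8 was lower and 0 were higher in each comparison with LFD, where 8.35% of all genes were lower under HFD and 7.18% lower in ob/ob. Against the HFD mice, 7 of the 8 had a lower mean in ob/ob, with a median of -0.16 beside 0.01 over all genes, and 0 of 8 had an unadjusted p under 0.05. The mean over the 8 markers was 7.20 ± 0.31 (SD, n = 3) under LFD, 7.07 ± 0.14 (SD, n = 3) under HFD and 6.90 ± 0.89 for the 2 ob/ob mice, a smaller distance between group means than the SD of the ob/ob mice.

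Cfd was the marker that set the groups apart. Cfd (chromosome 10, 79890853 to 79892655, plus strand) encodes adipsin, or complement factor D, a serine protease of the alternative complement pathway that adipocytes secrete. Its rlog values were 8.41, 7.67 and 7.50 under LFD, 5.97, 6.78 and 5.79 under HFD, and 6.31 and 5.15 in ob/ob. All 5 obese mice lay below all LFD mice, and HFD and ob/ob overlapped. The mean was 7.86 ± 0.48 (SD, n = 3) under LFD, 6.18 ± 0.53 (SD, n = 3) under HFD and 5.73 ± 0.82 (SD, n = 2) for ob/ob. The log2 difference was -1.68 (standard error 0.41) in HFD against LFD, with an unadjusted p of 0.00278 and an adjusted p of 0.177 with limma. In ob/ob against LFD it was -2.13 (standard error 0.45), with an unadjusted p of 0.00126 and an adjusted p of 0.152 with limma. On the rlog scale these are folds of 0.312 and 0.228. Without HFD replicate 1 the difference between HFD and LFD was -1.57 with an adjusted p of 0.0459 with limma, in a fit that called 2812 genes.

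The other secreted markers did not follow Cfd. Adipoq (chromosome 16, 23146536 to 23158028), which encodes adiponectin, had rlog values of 8.03, 7.28 and 7.14 under LFD, 7.89, 7.77 and 7.28 under HFD, and 8.07 and 6.68 in ob/ob. The highest and the lowest Adipoq value were those of the 2 ob/ob mice, so the group differences of 0.16 under HFD (standard error 0.39, adjusted p = 0.832 with limma) and -0.10 in ob/ob (standard error 0.44, adjusted p = 0.908) were within the spread of the mice. Retn (chromosome 8, 3655770 to 3660110), which encodes resistin, was at 5.09, 5.12 and 5.07 under LFD, 4.88, 4.62 and 3.86 under HFD, and 5.14 and 3.64 in ob/ob. All HFD mice lay below all LFD mice, which were close to one another, while 1 ob/ob mouse lay above them and the other below. The log2 difference of Retn was -0.65 under HFD (standard error 0.43, adjusted p = 0.405 with limma) and -0.71 in ob/ob (standard error 0.48, adjusted p = 0.414). In the same gene family, Retnla, a product of macrophages and fat, was 0.42 higher under HFD and 0.44 higher in ob/ob than under LFD (adjusted p = 0.563 and 0.581 with limma). Retnlg, a product of neutrophils, was at 4.14 ± 0.47 under LFD and 5.92 ± 0.44 under HFD (SD, n = 3 each), with no overlap and an adjusted p of 0.176 with limma. Retn, Retnla and Retnlg thus had different signs or sizes in the same mice, and Salmon, which assigns reads by probability, could share reads among such relatives.

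Markers of the lipid droplet and of lipid transport had overlapping groups in every comparison. Fabp4 (chromosome 3, 10204088 to 10208576, minus strand), a fatty acid carrier of adipocytes that endothelial cells and macrophages also make, was at 9.97, 9.88 and 9.89 under LFD, 10.09, 9.78 and 9.53 under HFD, and 10.45 and 8.93 in ob/ob. Plin1 (chromosome 7, 79720218 to 79732903, minus strand), which coats the droplet, was at 6.84, 5.94 and 6.16 under LFD, 6.08, 6.53 and 6.21 under HFD, and 7.09 and 5.82 in ob/ob. Cidec (chromosome 6, 113424634 to 113435760, minus strand), which drives fusion of droplets, was at 7.55, 7.22 and 7.09 under LFD, 7.25, 7.77 and 8.26 under HFD, and 8.48 and 6.73 in ob/ob. In Fabp4, Plin1 and Cidec the ob/ob mice held both ends of the range. Their differences were -0.12, -0.04 and 0.47 under HFD and -0.23, 0.14 and 0.32 in ob/ob, and their adjusted p-values against LFD lay between 0.552 and 0.959 with limma. Without ob/ob replicate 2 the difference of Cidec between ob/ob and LFD was 1.19 (unadjusted p = 0.0180), and without ob/ob replicate 1 it was -0.55.

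Lipe (chromosome 7, 25379527 to 25398710, minus strand), the hormone-sensitive lipase, was at 7.78, 7.24 and 7.19 under LFD, 7.78, 7.68 and 8.06 under HFD, and 7.78 and 7.11 in ob/ob. LFD replicate 1 reached the HFD range, and the difference of 0.44 (standard error 0.25) had an adjusted p of 0.350 with limma. The antisense gene 4732471J01Rik overlaps Lipe and was itself measured, at 3.37 ± 0.33 under LFD and 3.56 ± 0.44 under HFD, and whether the counting used strand is not given in the sources used here. Pparg (chromosome 6, 115360951 to 115490399, plus strand), the nuclear receptor that directs adipocyte differentiation and is also made by macrophages, was at 6.77, 6.08 and 5.98 under LFD, 5.93, 6.89 and 7.11 under HFD, and 6.86 and 6.08 in ob/ob. HFD replicate 1 had the lowest and HFD replicate 3 the highest Pparg value of all mice, and the difference between HFD and LFD was 0.37 (standard error 0.39, adjusted p = 0.604 with limma). The difference of Pparg between ob/ob and LFD was 0.20 (standard error 0.43, adjusted p = 0.816 with limma).

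**Figure D2:**
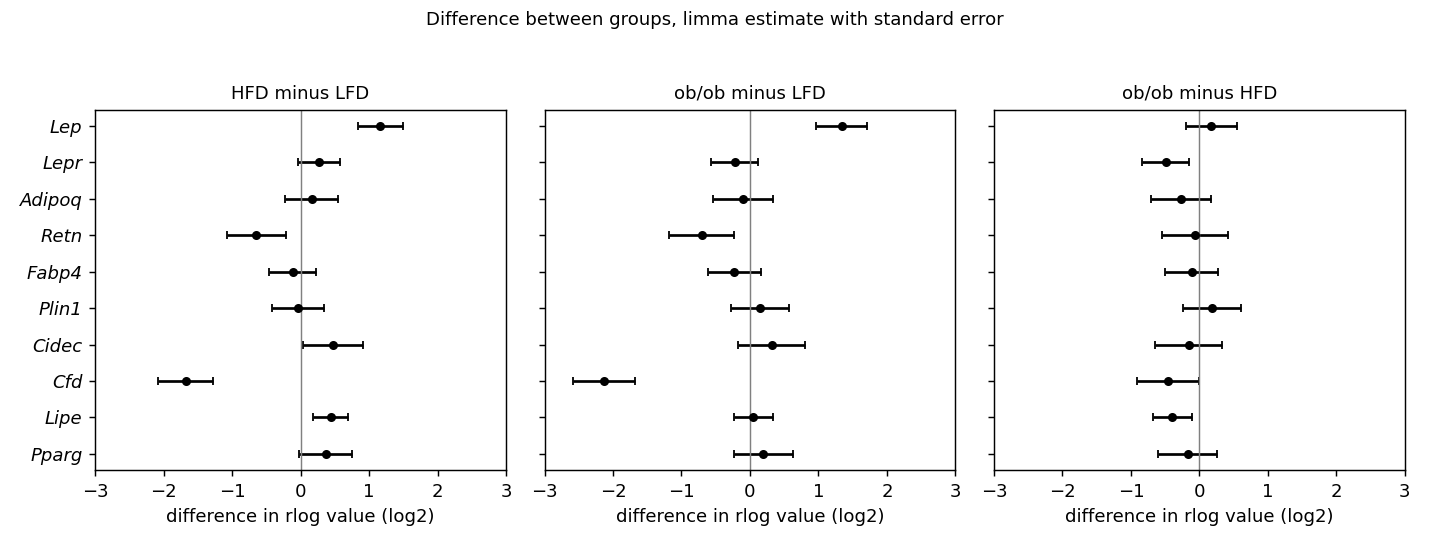
Log2 difference (x axis) of the 10 genes (y axis) with its limma standard error in HFD minus LFD, ob/ob minus LFD and ob/ob minus HFD. Lep lies at 1.17 and 1.34 and Cfd at -1.68 and -2.13 in the comparisons with LFD, and the other 8 genes lie between -0.71 and 0.47 there.

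The 2 ob/ob mice stood apart from each other in the adipocyte markers. ob/ob replicate 1 had the highest value of all 8 mice for 5 of the 8 markers (Adipoq, Retn, Fabp4, Plin1 and Cidec), and ob/ob replicate 2 the lowest for 7 of the 8, all but Pparg. The gap between them was between 0.67 (Lipe) and 1.75 (Cidec). Lep followed the same order within ob/ob, with a gap between 8.12 and 6.78, whereas Lepr had the opposite order. The mean over the 8 markers was 7.52 in ob/ob replicate 1 and 6.27 in ob/ob replicate 2, and ran from 6.98 to 7.56 in the 6 WT mice.

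To set Lep beside adipocyte content, the mean of the 8 markers was subtracted from the rlog value of Lep in each mouse. This mean is a rough measure, as the markers did not all move together across the mice. Pearson r was 0.83 between Adipoq and Fabp4 and 0.85 between Cidec and Pparg. It was -0.0033 between Retn and Lipe and -0.16 between Retn and Pparg. The result of the subtraction was -1.36, -1.20 and -0.72 in replicates 1 to 3 of LFD, 0.29, 0.03 and 0.29 in replicates 1 to 3 of HFD, and 0.60 and 0.51 in ob/ob replicates 1 and 2. On this scale the 3 groups did not overlap, in the order ob/ob, HFD, LFD, and the ob/ob mice, which were 1.35 apart in Lep itself, were close to each other. The mean was -1.09 ± 0.33 under LFD, 0.20 ± 0.15 under HFD and 0.56 ± 0.06 in ob/ob (SD), a difference from LFD of 1.30 under HFD and 1.65 in ob/ob, and a difference of 0.35 between ob/ob and HFD. With the same subtraction, 16.6% of 15039 genes were higher under HFD than under LFD with no overlap, 12.0% were higher in ob/ob than under LFD, 3.09% were higher in ob/ob than under HFD, and 24 genes (0.160%) had all 3 groups in the order of Lep. Since Cfd is itself one of the 8 and was low in obese mice, Lep was also set against the 7 markers without Cfd, a choice made after its values were seen. The groups again did not overlap, with -1.24, -1.11 and -0.65 under LFD, 0.15, -0.04 and 0.12 under HFD, and 0.43 and 0.35 in ob/ob. No p is given for these scores, as their genes were chosen.

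Some markers were separated on the relative scale too, each set against the other 7. For the markers named here these 7 include Cfd, whose difference from LFD was -1.68 under HFD and -2.13 in ob/ob. Its low level in obese mice lowers the mean that is subtracted. Unlike for Lep, no version without Cfd was made for them. The part of Cfd in these separations was not tested, so they do not show a rise of the markers themselves. Cidec was higher than in the LFD mice by 0.69 under HFD and by 0.72 in ob/ob, and Lipe by 0.65 and 0.41, with no overlap, and Plin1 (0.51) and Pparg (0.58) were above LFD with no overlap in ob/ob. Above HFD with no overlap in ob/ob were Plin1 (0.41) and Lep (0.35).

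The same subtraction left Lepr with overlapping groups, at -0.11 ± 0.21 under LFD, 0.28 ± 0.27 under HFD and -0.03 ± 1.29 in ob/ob (SD). Of the 2 ob/ob mice, the one with high adipocyte markers was at -0.95 and the other at 0.88. Cfd relative to the mean of the other 7 markers was 0.97, 0.71 and 0.57 under LFD, -1.16, -0.51 and -1.39 under HFD, and -1.39 and -1.28 in ob/ob, again with all obese mice below all LFD mice.

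**Figure D3:**
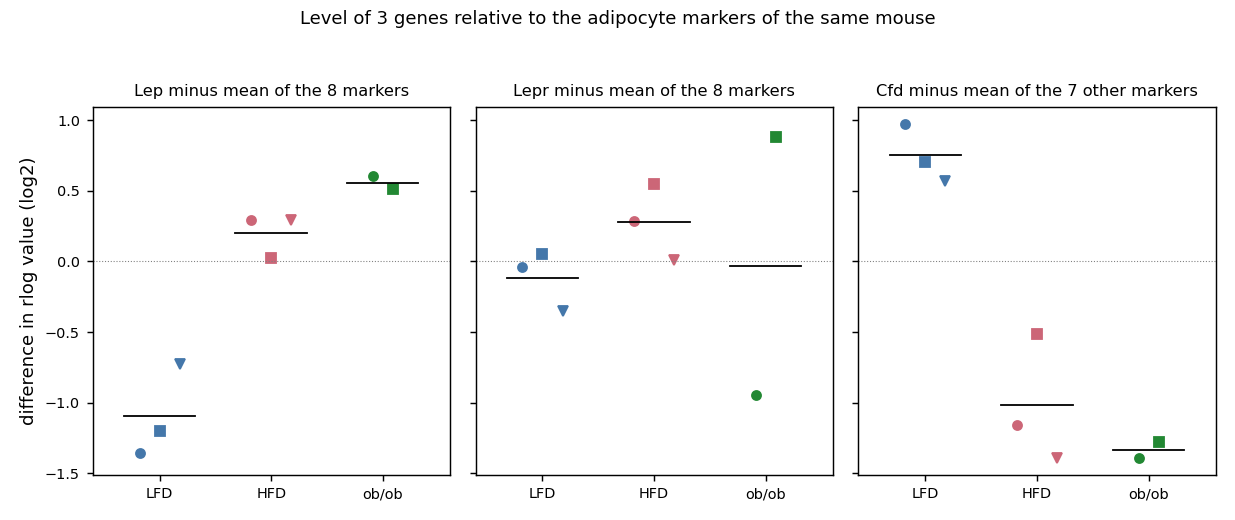
Difference in rlog value (log2, y axis) between a gene and the mean of the adipocyte markers of the same mouse, by group (x axis), with 1 point a mouse (circle, square and triangle for replicates 1, 2 and 3) and a line at the group mean. Lep runs from -1.36 to -0.72 under LFD, from 0.03 to 0.29 under HFD and is at 0.60 and 0.51 in ob/ob; Cfd runs the other way and Lepr overlaps between groups.

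When limma was given the mean of the 8 markers as a covariate, the difference of Lep was 1.28 between HFD and LFD (unadjusted p = 0.000959, adjusted p = 0.270) and 1.61 between ob/ob and LFD (unadjusted p = 0.000600, adjusted p = 0.351). With the acinar level as the covariate it was 1.47 and 1.66 (adjusted p = 0.270 and 0.168). In each of these fits Lep stayed short of an adjusted p of 0.05. The marker covariate includes Cfd, which was itself low in obese mice, and no fit with a covariate without Cfd was run. The fit therefore does not show that the difference of Lep is independent of adipocyte content.

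Other adipocyte genes, taken from lists written by hand for this tissue, were mixed. Of 20 genes of adipocyte identity and fat storage, 8 were higher and 12 lower under HFD than under LFD, with 0 higher and 4 lower at an unadjusted p under 0.05 (background 11.5% and 8.35%), and a median difference of -0.08. In ob/ob against LFD 9 were higher and 11 lower, with a median of -0.08. At an unadjusted p under 0.05 with limma, 1 was higher and 3 lower, beside 11.6% and 7.18% of all genes. The lowest difference in both was that of Lgals12, a galectin of lipid droplets, at 7.94 ± 0.12 under LFD, 6.47 ± 1.10 under HFD and 6.09 ± 1.54 in ob/ob (SD), with log2 differences of -1.46 and -1.84 (adjusted p = 0.250 and 0.237 with limma). The largest under HFD was Dgat2, the enzyme of the last step of triglyceride synthesis, with 0.95 (standard error 0.51, adjusted p = 0.319), and the largest in ob/ob was Cd36, a fatty acid transporter, with 0.73 (standard error 0.26, adjusted p = 0.224). The named values of these lists did not pass an adjusted p of 0.05 either.

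Of 9 lipolysis genes, partners of Lipe and Plin1 in the release of fatty acids, 4 were higher and 5 lower under HFD and 3 higher and 6 lower in ob/ob mice than under LFD. Pde3b, the phosphodiesterase through which insulin restrains lipolysis, was lowest under HFD, with a difference of -0.82 (standard error 0.18, unadjusted p = 0.00182, adjusted p = 0.175 with limma), and Aqp7, the glycerol channel, was highest with 0.65 (adjusted p = 0.465). In ob/ob, Prkar2b, a regulatory subunit of protein kinase A, was highest with 1.21 (standard error 0.32, adjusted p = 0.189) and Mgll, the monoglyceride lipase, lowest with -0.90 (adjusted p = 0.414). Of 6 measured genes of a brown adipocyte list, 4 were higher and 2 lower under HFD. At an unadjusted p under 0.05, 3 were higher and 1 lower, beside 11.5% and 8.35% of all genes. The 3 were Cidea, Cox7a1 and Dio2, whose low means lay above only 8.03%, 9.01% and 14.4% of all genes. In ob/ob mice 2 of the 6 had a higher and 4 a lower mean. At that p there was 1 in each direction, beside 11.6% and 7.18% of all genes. Ucp1 and Elovl3 of that list were not among the 15047 gene symbols. Lowest in both was Prdm16, a regulator of brown fat identity, at 7.52 ± 0.26 under LFD, 6.19 ± 0.39 under HFD and 5.71 ± 0.48 for ob/ob (SD), with differences of -1.33 and -1.82 (adjusted p = 0.175 and 0.137 with limma). Cox7a1, a subunit of cytochrome c oxidase that muscle also makes, was highest under HFD with 1.75 (adjusted p = 0.193), and Dio2, the deiodinase that activates thyroid hormone, was highest in ob/ob with 1.89 (adjusted p = 0.189) and 1.13 under HFD (adjusted p = 0.228).

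Genes of leptin receptor signalling were described from a list of 18, of which 17 were measured. In HFD, 10 were higher and 7 lower than under LFD, with 3 higher and 0 lower at an unadjusted p under 0.05 (11.5% and 8.35% of all genes), and in ob/ob 10 and 7, with 2 higher and 0 lower (11.6% and 7.18% of all genes). Both counts of higher genes are near what those shares give for 17 genes. The median difference was 0.15 and 0.16. Jak2, the kinase bound to the receptor, had the largest difference under HFD, at 9.13 ± 0.05 under LFD and 9.88 ± 0.64 under HFD (0.75, standard error 0.29, adjusted p = 0.220 with limma), with overlapping groups. Socs3, the feedback inhibitor of the receptor, had the largest in ob/ob, at 7.67 ± 0.32 under LFD and 8.65 ± 0.17 in ob/ob (0.98, standard error 0.40, adjusted p = 0.250 with limma), and 8.34 ± 0.76 under HFD. The lowest were Stat5b under HFD with -0.33 (adjusted p = 0.317) and Cish in ob/ob with -0.61 (adjusted p = 0.459), a signal transducer and an inhibitor of cytokine signals. Stat3 itself was at 10.17 ± 0.57 under LFD, 10.07 ± 0.09 under HFD and 10.03 ± 0.50 in ob/ob (SD).

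Leprot, which limits the amount of leptin receptor at the cell surface, was at 8.52 ± 0.12 under LFD, 9.07 ± 0.31 under HFD and 9.16 ± 0.15 in ob/ob (SD). All 5 obese mice lay above all LFD mice, with differences of 0.55 (standard error 0.19, adjusted p = 0.204 with limma) and 0.64 (standard error 0.22, adjusted p = 0.217), while the values of Lepr overlapped in the same mice. Leprotl1, its relative, was at 7.64 ± 0.12, 8.07 ± 0.14 and 8.07 ± 0.27, also without overlap between obese and LFD mice. Both belong to the 17 measured genes of the signalling list. Of all genes, 9.40% likewise had both obese groups above LFD with no overlap.

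The list of other adipokines had a higher mean rlog value in every obese mouse (6.48 to 6.87) than in every LFD mouse (6.15 to 6.32). Taken singly, 2 of its 9 measured genes were above all LFD mice under HFD and 2 in ob/ob, beside 12.9% and 24.1% of all genes. The list mean thus does not stand for each gene. Of 4 genes of adiponectin binding, Cdh13, which binds adiponectin on vessel walls, had the largest difference, 1.05 under HFD and 1.10 in ob/ob (adjusted p = 0.405 and 0.433 with limma), and the receptor Adipor1 the lowest, -0.37 and -0.53 (adjusted p = 0.328 and 0.261). Of 9 measured adipokine genes, 8 were higher and 1 lower under HFD and 5 higher and 4 lower in ob/ob mice than under LFD. Lcn2, or lipocalin 2, which neutrophils and epithelia also make, was highest in both with 1.13 and 1.38 (adjusted p = 0.343 and 0.318). Its values in ob/ob replicates 1 and 2 were 10.7 and 8.05, the latter within the LFD values of 7.31 to 8.65. The lowest were Rarres2, or chemerin, under HFD with -0.01 and Nrg4 in ob/ob with -0.59 (adjusted p = 0.987 and 0.452).

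Genes with the pattern most like that of Lep were sought over all 15037 genes outside the 10, as the highest Pearson r across the 8 mice, a description only, since the mice share their groups and their composition of cells. For Lep they were Aspn (r = 0.964), Meox1 (0.962), Gpbar1 (0.961), Mfsd14b (0.935) and 1600010M07Rik (0.929), and 11 genes had an r of at least 0.9. For Lepr they were Vegfa (0.897), A330009N23Rik (0.894), 1700088E04Rik (0.881), Mthfs (0.867) and Col10a1 (0.865), and no gene reached 0.9. For the mean of the 8 markers they were Tmc7 (0.979), Leng8 (0.954), Art3 (0.932) and Prox1 (0.922). None of these genes belongs to the adipocyte, lipolysis or leptin signalling lists.

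The RNA level of some cell lists differed between groups, and that of the acinar genes also spread widely within HFD and ob/ob. Whether cell numbers or RNA per cell differed cannot be told apart. All 21 acinar genes had a lower mean under HFD and in ob/ob than under LFD, with a median difference of -1.94 and -2.07, and their mean rlog value was 17.9 to 18.2 under LFD, 18.1, 16.1 and 14.1 in replicates 1 to 3 of HFD, and 17.5 and 14.5 in ob/ob replicates 1 and 2. The log2 of their summed level ran from 23.8 to 24.2 under LFD, from 20.0 to 24.1 under HFD and from 20.4 to 23.4 in ob/ob. Macrophage genes, 9 of 10 higher under HFD and 10 of 10 in ob/ob, had a log2 summed level of 12.0 to 12.4 under LFD, 12.8 to 13.7 under HFD and 13.6 to 14.4 in ob/ob. The summed level of the 8 adipocyte markers ran from 10.8 to 11.1, from 10.8 to 10.9 and from 10.0 to 11.3, with overlap. HFD replicate 1, with the acinar level of the LFD mice, had Lep at 7.27 and Cfd at 5.97, both in the range of the other HFD mice, and ob/ob replicate 1, with 17.5, had Lep at 8.12 and Cfd at 6.31. Without HFD replicate 3 and ob/ob replicate 2, the mice with the lowest acinar level, the difference of Lep from LFD was 1.15 under HFD (adjusted p = 0.284 with limma) and 2.01 in ob/ob. That of Cfd was -1.48 under HFD (adjusted p = 0.284 with limma) and -1.55 in ob/ob. HFD replicate 2, also below the LFD mice with 16.1, was kept, so an acinar difference between HFD and LFD remained. In this fit 1 of 8 markers under HFD and 2 of 8 in ob/ob had an unadjusted p under 0.05 against LFD, beside 2039 and 930 of all 15047 genes. The part of macrophages and fibroblasts in the differences of Lep and of the adipocyte markers was not tested.

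**Figure D4:**
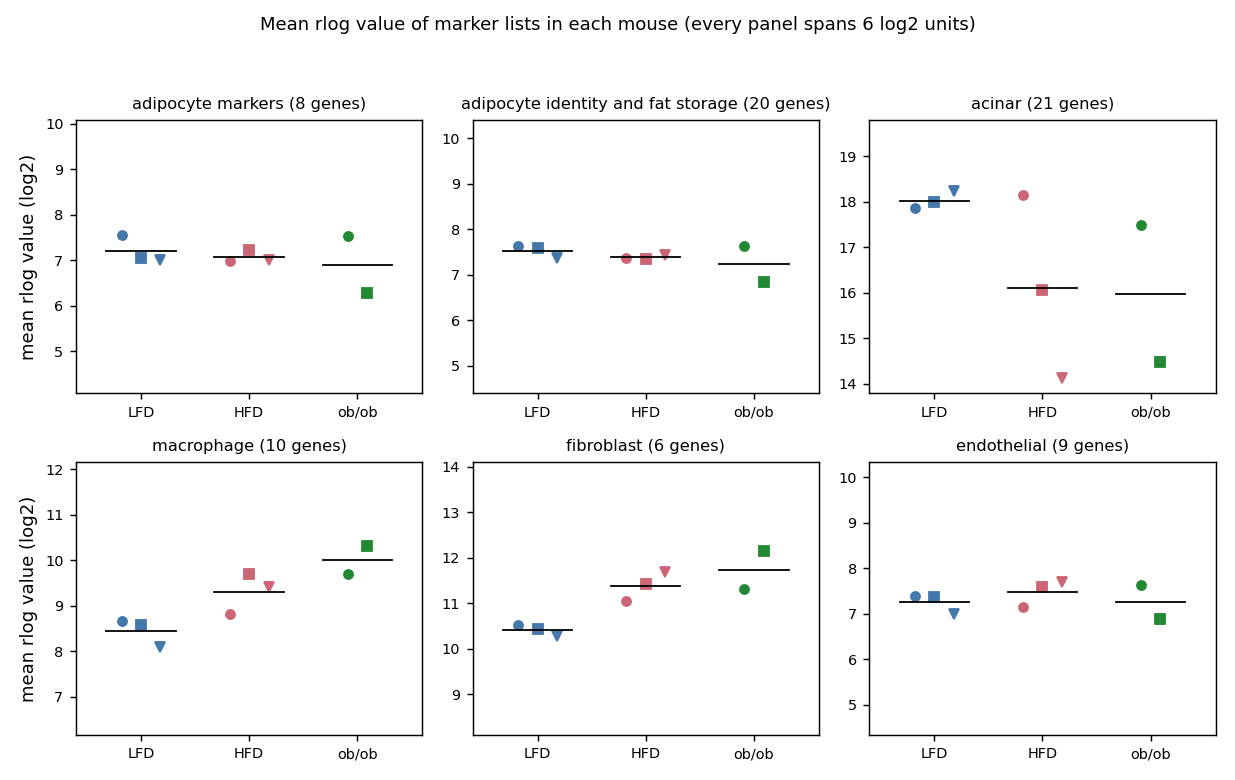
Mean rlog value (log2, y axis) of 6 gene lists by group (x axis), with 1 point a mouse (circle, square and triangle for replicates 1, 2 and 3), a line at the group mean and 6 log2 units in each panel. The adipocyte markers overlap between all groups (6.27 to 7.56), acinar genes run from 14.1 to 18.2, and the fibroblast list is higher in every obese mouse than in every LFD mouse.

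The remaining lists are given as counts of genes with a higher mean than under LFD. In HFD these were 5 of 5 neutrophil, 2 of 4 mesothelial, 0 of 7 islet, 3 of 4 duct and 1 of 6 lymphocyte genes, and in ob/ob 5 of 5, 2 of 4, 5 of 7, 1 of 4 and 2 of 6. Of 6 progenitor genes, 6 were higher under HFD and 5 in ob/ob, and of 6 fibroblast genes 4 and 6. LFD replicate 2 stood apart in lymphocyte genes, with a mean rlog value of 5.60 where the other 7 mice lay between 3.44 and 4.24, and without it the difference of Lep between HFD and LFD was 1.04 and that of Cfd -1.77.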

How the data were processed

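RNA-Seq of pancreas tissue from 8 mice was used. The authors quantified paired-end reads with Salmon 0.11.3 against Gencode M18 (GRCm38.p6), summed transcripts per gene and deposited rlog values made with DESeq2 1.22.2, which are log2 values corrected for library size. The filter behind the 15047 symbols is not given in the sources used here. Depth is unknown, so the error is the spread between mice, which the labels number as separate replicates.

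The sample labels gave the groups. One limma model (version 3.58.1, R 4.3.3) held the 3 group means over the 8 mice, its moderated variance was allowed to depend on the expression level, and the Benjamini-Hochberg adjustment ran over the 15047 symbols. Tables were made with Python 3.11.15. The members and the gene lists were chosen with earlier results of these data known. Named genes are the 10 members, relatives and overlapping genes, the genes with the highest and lowest difference of each pathway list, and the 5 genes most like each pattern, of which 1 is not reported here. Stat3, Leprotl1 and the brown adipocyte genes were named after their values were seen. Coordinates are those of Gencode M21, where 10 of 10 members were found, and start-site sequences are those of RefSeq on GRCm38.p6.

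The fit was tested on simulated data of 15047 genes for HFD against LFD, with 200 genes changed. Of 50 genes each changed by 2, 4, 8 and 16 residual SDs, 2%, 26%, 96% and 100% were recovered, with 5 false calls. The median residual SD was 0.342. Other settings tried were a constant prior variance, leaving the third group out of the model, dropping genes whose rlog values averaged below 5, centring each mouse on its median, quantile normalization, a replicate block, covariates for acinar or adipocyte level, and leaving out mice.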

Additional observations from a re-analysis of the deposited data

How the results depend on the processing

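Lep and Cfd kept their direction against LFD in every alternative run. Over all results and alternatives, 542 values kept direction and side of the threshold or their count, 48 changed sign, 21 moved and 1 passed the threshold anew, and the sign changes were all of values that were not called. The fit of all 8 mice called 0 genes in each comparison. With only the 2 groups compared, 1 gene was called between HFD and LFD and 38 between ob/ob and LFD. With the acinar covariate, 1 gene was called in each comparison with ob/ob. Without HFD replicate 3 and ob/ob replicate 2 (chosen after seeing the data), 1 gene was called between HFD and LFD. Leaving out 1 mouse gave 0 to 2812 called genes between HFD and LFD (most without HFD replicate 1), 0 to 89 between ob/ob and LFD and 0 to 1 between ob/ob and HFD, and 1 to 2, 1 to 3 and 0 to 2 markers with an unadjusted p under 0.05, beside 1480 to 5445, 752 to 4075 and 369 to 1117 of all genes. The cause was not tested.

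With the acinar covariate the sign turned in HFD against LFD for Retn (0.0040), Fabp4 (0.40) and Plin1 (0.19), and in ob/ob against LFD for Adipoq (0.40), Fabp4 (0.32) and Pparg (-0.026). Without HFD replicate 3 and ob/ob replicate 2 it turned for Fabp4 in HFD (0.019), for Adipoq (0.59), Retn (0.045) and Fabp4 (0.53) in ob/ob against LFD, and for Adipoq (0.24), Retn (0.39), Fabp4 (0.51), Cidec (0.97), Lipe (0.051) and Pparg (0.45) in ob/ob against HFD. In ob/ob against LFD, quantile normalization gave Plin1 -0.018 and Lipe -0.016, and median centring gave Lipe -0.042. Against the 7 markers without Cfd, relative Lep differed by 1.08 in HFD and 1.39 in ob/ob from LFD.

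Leaving out 1 mouse turned the sign of further values, given as lowest to highest. In HFD against LFD these were Adipoq -0.010 to 0.44, Fabp4 -0.26 to 0.019 and Plin1 -0.23 to 0.22. In ob/ob against LFD they were Lepr -0.51 to 0.062, Adipoq -0.80 to 0.59, Retn -1.46 to 0.045, Fabp4 -0.98 to 0.53, Plin1 -0.50 to 0.78, Cidec -0.55 to 1.19, Lipe -0.29 to 0.38 and Pparg -0.19 to 0.58. In ob/ob against HFD they were Lep -0.50 to 0.85, Adipoq -0.96 to 0.43, Retn -0.81 to 0.69, Fabp4 -0.87 to 0.65, Plin1 -0.45 to 0.82, Cidec -1.03 to 0.72, Cfd -1.03 to 0.13 and Pparg -0.56 to 0.22. Where 1 ob/ob mouse was left, limma takes it to vary like the other groups.

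The replicate numbers name different animals. Same-numbered mice deviated with correlations of -0.0595, 0.113 and -0.281 between HFD and LFD, of -0.0967 and 0.128 between ob/ob and LFD, and of 0.592 and 0.303 between ob/ob and HFD, where there are only 2 pairs, so the numbers were not taken as a pairing. With the replicate block, 0 genes were called in each comparison, and Lep differed from LFD by 1.17 in HFD (adjusted p = 0.143 with limma) and by 1.39 in ob/ob (adjusted p = 0.149).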
